A study of Mus musculus with 8 samples.

Results

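The genes described here are 40 complement and coagulation symbols out of 56748 gene IDs in the count table, chosen by name and ordered by cascade step, 21 of complement and 19 of coagulation. They were measured by RNA sequencing in livers of mice labelled miR-93 knockout (KO, 4 libraries) and in livers of mice labelled wild-type (WT, 4 libraries). Mice of both genotypes ate a high fat-high fructose diet, with a label of 16 weeks, and carry the label of metabolic dysfunction-associated steatotic liver disease, so no group on another diet enters the comparison. The labels give no strain, sex or age of the mice and do not say whether miR-93 was missing in the whole body or in the liver alone. Nor do they tie each library to a mouse of its own, so every p-value here rests on library-to-library spread that may be technical.

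Complement and blood coagulation are protease cascades of the plasma, and the hepatocyte makes most of their components. Complement is started by antibody-bound C1, by lectins that bind microbial sugars or by slow turnover of C3. All routes cleave C3 and may end in the terminal pore. Coagulation runs through serine proteases to thrombin, which turns fibrinogen into fibrin. Serpins, the protein C system and complement regulators hold both in check, and plasmin dissolves the clot. Many of these proteins belong to the acute phase response, in which the liver alters plasma protein output on cytokine signals, and fibrinogen and C3 are known as proteins that rise in it.

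Libraries held 9187279 to 10966019 counts in KO and 5085860 to 7451026 in WT. Transcripts of the mitochondrial genome took 8.08% to 15.0% of counts in KO and 25.4% to 77.8% in WT, and WT replicate 4 stood apart at the upper end, with 14287 genes detected against 18412 to 20148 in the other libraries. Values and counts that it moves past the threshold or by over 1.5 times are therefore given with and without it. Depth and mitochondrial share each separated KO from WT without overlap, and their part in the changes cannot be told apart from the genotype. Levels are given as CPM, counts scaled to a common library size with TMM factors. Changes are log2 fold changes of KO over WT ± the standard error, from edgeR's quasi-likelihood test with Benjamini-Hochberg adjustment over the 13204 genes tested, and a gene is said to rise or fall at an adjusted p under 0.05. For the deleted gene, Mir93, all 8 libraries held 0 counts, and the genotype labels could not be checked by it. Among 10 hepatocyte markers, the member F2 included, 2 were higher, 1 was lower and 7 did not pass in KO, and 3 were higher and 4 lower without WT replicate 4. Albumin (Alb), the main plasma protein, averaged 24152 ± 1909 CPM in KO and 34595 ± 3509 CPM in WT (SD, n = 4 each; log2 fold change -0.52 ± 0.14, adjusted p = 0.0233). The hepatocyte marker sum ran from 39298 to 44799 CPM in KO and from 46366 to 60581 CPM in WT, or 53768 to 60581 CPM without WT replicate 4. Alb has the highest level of the 10 markers and weighs most in that sum. By log2 fold change 6 of the 10 were positive and 4 negative, with a median of 0.11. In bulk tissue, fewer cells of a type and less RNA per cell cannot be told apart.

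The sequences below are shown because the deleted microRNA acts through its seed and because the fibrinogen genes rose while the neighbours Klkb1 and F11 fell. They come from RefSeq on GRCm38.p6 and, for the target sites, from GENCODE M21 on GRCm38, while the counts rest on mm39. Capitals mark the seed, bases 2 to 8, in miR-93-5p (chr5:138165574-138165596, minus strand) and its complement in the 3′ UTR of C4bp (chr1:130635169-130635197, minus strand), C8b (chr4:104804365-104804393, plus strand) and Serpinc1 (chr1:161004782-161004810, plus strand).
miR-93-5p: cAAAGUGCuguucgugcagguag
C4bp site: ttactttccttGCACTTTaaatataagcg
C8b site: ttgcacactctGCACTTTtgttacatcca
Serpinc1 site: gctctgccaatGCACTTTccctcactagg

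The site GCACTTT was found in the longest annotated 3′ UTR of 3 of 38 tested members (7.89%) and of 1690 of 11579 tested genes with a 3′ UTR (14.6%). The members had the shorter UTRs, with a median length of 433 bases against 1164 bases. A match is a sequence description, and binding was not measured. Of the 3 genes with a match, C4bp and C8b were higher in KO (log2 fold changes of 0.61 ± 0.15 and 0.47 ± 0.15) and Serpinc1 was at -0.03 ± 0.12.

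The next lines give the 250 bases before the annotated start of 5 members, 5′ to 3′ along the gene. Fgg (chr3:83007474-83007723, plus strand), Fga (chr3:83025903-83026152, plus strand) and Fgb (chr3:83049864-83050113, minus strand) are neighbours, as are F11 (chr8:45262032-45262281, minus strand) and Klkb1 (chr8:45294836-45295085, minus strand). Capitals mark matches, on either strand, to TTCNNNGAA (bound by STAT factors), CTGGGAA (the type II IL-6 element), TTGCNNAA (C/EBP) and GTTAAT (HNF1). The first and second of these can share bases.
Fga: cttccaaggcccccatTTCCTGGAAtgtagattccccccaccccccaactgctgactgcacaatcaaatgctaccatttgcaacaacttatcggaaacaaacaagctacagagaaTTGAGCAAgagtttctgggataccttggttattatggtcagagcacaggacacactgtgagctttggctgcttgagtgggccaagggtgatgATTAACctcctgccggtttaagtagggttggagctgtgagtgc
Fgb: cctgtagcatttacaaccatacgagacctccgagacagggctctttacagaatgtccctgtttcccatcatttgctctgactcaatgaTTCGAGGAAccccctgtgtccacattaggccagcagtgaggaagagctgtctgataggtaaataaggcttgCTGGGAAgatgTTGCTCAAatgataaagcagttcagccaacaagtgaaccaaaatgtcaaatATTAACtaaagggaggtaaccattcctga
Fgg: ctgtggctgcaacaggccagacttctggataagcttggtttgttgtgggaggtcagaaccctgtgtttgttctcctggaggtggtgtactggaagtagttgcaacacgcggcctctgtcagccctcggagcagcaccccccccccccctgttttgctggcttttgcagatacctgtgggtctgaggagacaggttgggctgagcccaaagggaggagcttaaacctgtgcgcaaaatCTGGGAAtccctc
Klkb1: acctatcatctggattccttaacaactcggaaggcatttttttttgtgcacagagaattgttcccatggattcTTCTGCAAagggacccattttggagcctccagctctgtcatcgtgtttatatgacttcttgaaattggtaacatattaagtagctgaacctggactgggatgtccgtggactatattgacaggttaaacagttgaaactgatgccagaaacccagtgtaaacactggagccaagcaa
F11: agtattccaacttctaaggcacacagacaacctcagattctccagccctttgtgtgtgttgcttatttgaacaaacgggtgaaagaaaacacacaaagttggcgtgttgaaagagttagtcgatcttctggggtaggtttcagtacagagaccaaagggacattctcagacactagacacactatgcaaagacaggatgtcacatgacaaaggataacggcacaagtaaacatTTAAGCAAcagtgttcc

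In these stretches Fgb held all 4 motifs, Fga all but the IL-6 element, Fgg the IL-6 element alone, and Klkb1 and F11 the C/EBP motif alone. RefSeq promoter windows, 250 bases before to 50 after the start, were matched for 31 of the 40 members. The risen Serping1, Cfi, C4b and Plg and the fallen C2 had no window and are outside the counts below. The STAT motif was in the windows of 8 of these 31 members (25.8%) and of 9.55% of the 27025 genes with a window, and in 5 of the 11 higher, none of the 5 lower and 3 of the 14 members that did not pass. The HNF1 motif was in 10 of 31 members (32.3%) and 8.24% of all genes, and in 7 of the 11 higher and none of the 5 lower members. The C/EBP motif was in 10 of 31 members (32.3%) and 12.2% of all genes, and in 4 of the 11 higher and 4 of the 5 lower members, C1s1, C9, Klkb1 and F11. The IL-6 element was in 7 of 31 members (22.6%) and 12.7% of all genes, and in 4 of the 11 higher members and 1 of the 5 lower. These are counts of letters, and no test was made of them. The 27025 genes were not limited to those tested here. Shares among all genes that rose or fell were not counted, so the splits by direction are not read as a result about the members.

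Across the 2 cascades more members rose than fell. Of 38 members tested 15 rose (39.5%), where 10.4% of all tested genes did, and 6 fell (15.8%), where 10.7% of all tested genes did. The same shares of all genes, 10.4% and 10.7%, stand beside the counts by step below, where 1 to 8 genes were tested per step. The median was 0.21 over the tested members and -0.01 over all genes tested. Every KO library lay above every WT library for 18 members (16.3% of all genes) and below for 7 members (14.0% of all genes). Without WT replicate 4, 21 members rose (17.8% of all genes did) and 7 fell (17.5% of all genes). Scaling by library size alone, which moves the median of all genes to 0.54, called 7 members higher (4.25% of all genes) and none lower, at an unadjusted p under 0.05 either, where 0.939% of all genes were called lower. Of the 6 members that fell, C6, F11, Klkb1 and C9 kept a negative value under it (-0.42, -0.24, -0.23 and -0.14), and the falls below are relative to the other transcripts of the same library. All members together took 3.91% to 4.44% of the counts in KO libraries and 0.872% to 2.12% in WT libraries. Outside the mitochondrial genome the share was 4.60% to 4.84% in KO, against 2.75% to 3.92% in WT, where WT replicate 4 had the upper value.

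**Figure D1:**
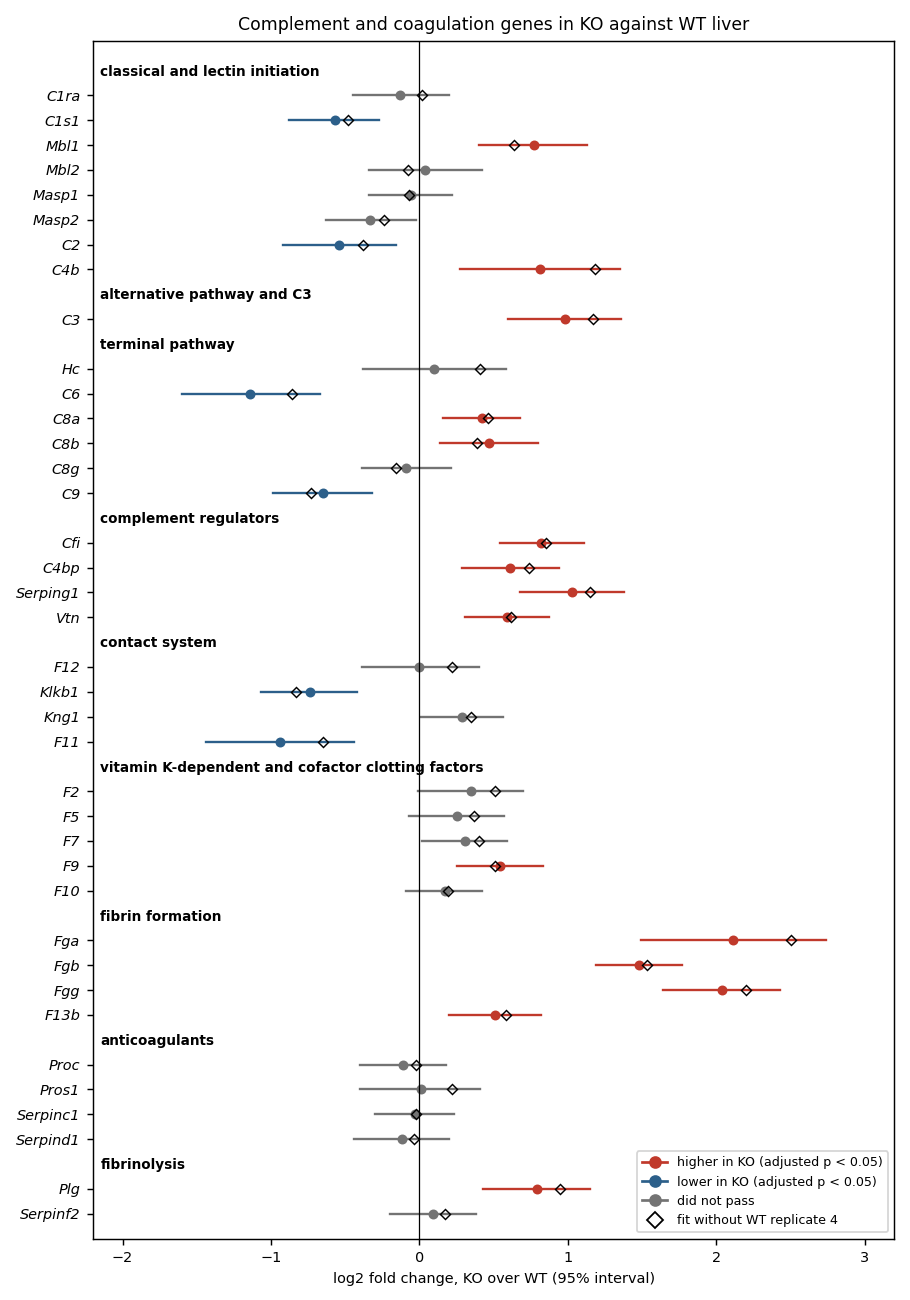
Log2 fold change of KO over WT (x axis) for the 38 tested members (y axis), grouped by cascade step. Circles and bars are the estimate and its 95% interval over all 8 libraries, and diamonds the estimate without WT replicate 4. The fibrinogen genes Fga, Fgb and Fgg lie farthest to the right at 2.11, 1.48 and 2.04, and C6 farthest to the left at -1.14.

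The genes of fibrin formation changed most. Fga, Fgb and Fgg encode the alpha, beta and gamma chains of fibrinogen, the soluble protein that thrombin turns into the clot, and F13b encodes the carrier subunit of factor XIII, which crosslinks it. All 4 rose. Fga (ENSMUSG00000028001) stood at 2304, 3201, 2747 and 3159 CPM in KO and at 604, 422, 489.7 and 1125 CPM in WT, the last value in replicate 4. The lowest KO library was above the highest WT library, and the log2 fold change was 2.11 ± 0.29 (adjusted p = 0.000526), a 4.33-fold difference. Fgb (ENSMUSG00000033831) read 3303, 3725, 3738 and 3679.5 CPM in KO and 1367, 1152, 1263 and 1385 CPM in WT. Its rise was the smallest of the chains, 1.48 ± 0.13 (adjusted p = 2.86e-05), with WT replicate 4 close to the other WT libraries. Fgg (ENSMUSG00000033860) read 2413, 2892, 2641 and 2910.3 CPM in KO and 669, 505, 606 and 870.5 CPM in WT, and rose by 2.04 ± 0.18 (adjusted p = 2.83e-05). The 3 chains kept their calls under all 19 alternative settings, with log2 fold changes of 1.96 to 2.89 for Fga, 1.44 to 2.07 for Fgb and 1.93 to 2.69 for Fgg. They took 25.8% to 28.6% of all member counts in KO and 11.4% to 13.6% in WT. F13b rose less, by 0.51 ± 0.14 (adjusted p = 0.0260), averaging 68.0 ± 7.18 CPM in KO and 48.1 ± 6.44 CPM in WT (SD, n = 4 each). The F13b call was lost without KO replicate 2, 3 or 4 or WT replicate 2 or 3, with adjusted p up to 0.0902.

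**Figure D2:**
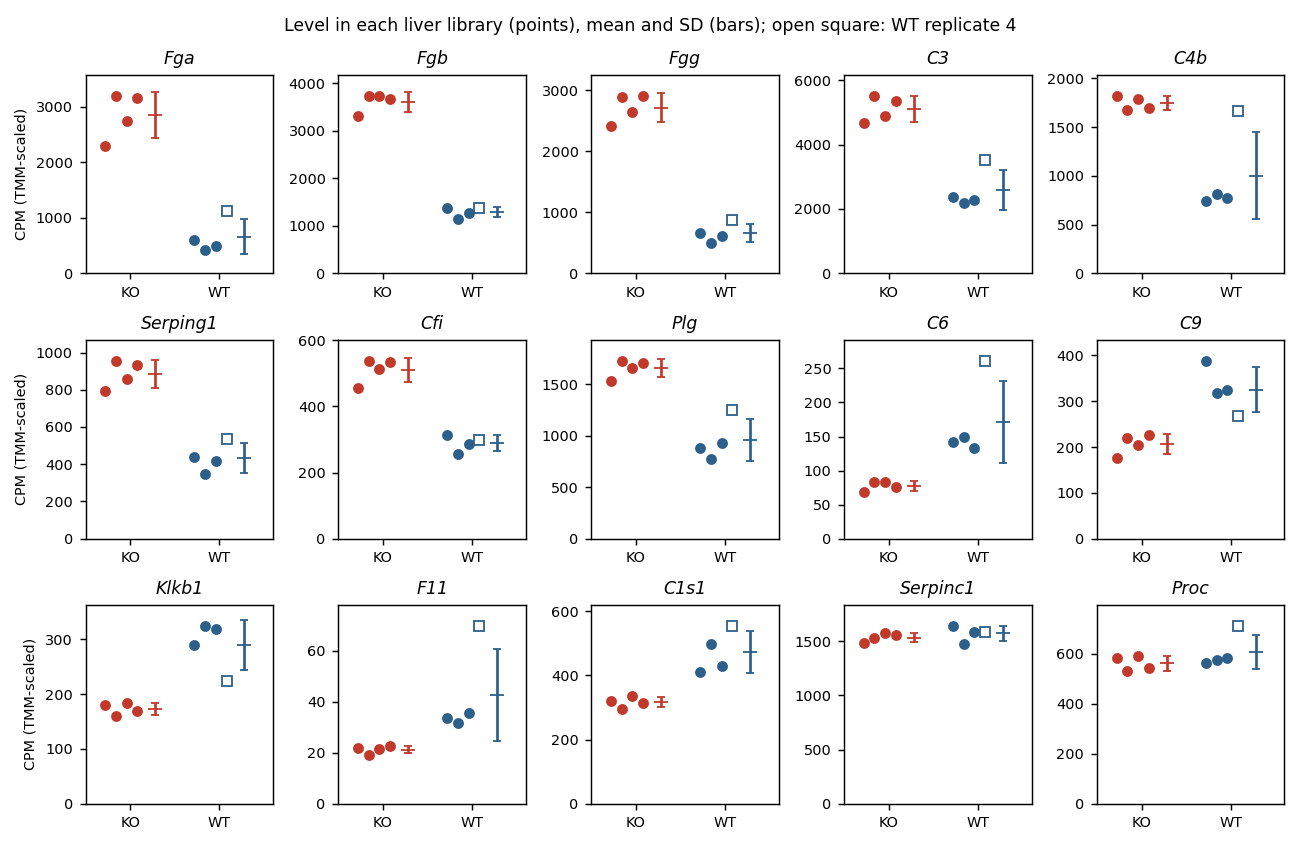
Level in CPM (y axis, from 0) of 15 members in each KO library (red, left) and WT library (blue, right), with the mean and SD beside the points and WT replicate 4 as an open square. KO and WT do not overlap in 13 panels, Fga to C1s1 in reading order, while Serpinc1 and Proc overlap.

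C3, the protein on which all complement routes converge, rose 1.97-fold. Its level was 4675, 5516, 4894 and 5345 CPM in KO and 2381, 2194, 2287 and 3519.5 CPM in WT. The groups did not overlap, and the log2 fold change was 0.98 ± 0.17 (adjusted p = 0.00290), or 1.17 without WT replicate 4, the highest WT library. The other 2 members of the alternative pathway did not pass the filter on low counts. Cfb, the factor B gene that supplies the protease of the alternative convertase, had 9, 5, 13 and 10 counts in KO and 7, 5, 1 and 0 in WT. In GENCODE M21, 79.5% of the Cfb exon bases are shared with Gm20547 on the same strand, a gene with 0 counts in every library, and the sources used here do not say how reads over both were counted. The counts of Cfb are therefore not read as its level. Cfd, the adipocyte-made protease that activates factor B, had 0 to 2 counts per KO library and 0 to 3 per WT library, at or under the 3 counts that a count of 0 allows. The summed level of 4 adipocyte markers, Cfd included and Lep at 0 in every library, was at most 0.168 CPM in KO and 0.825 CPM in WT.

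Initiation genes of the classical and lectin pathways moved in both directions, with 2 of 8 higher and 2 lower. C4b, which joins C2 in the classical convertase, read 1820.1, 1679, 1791 and 1699.7 CPM in KO and 739, 819, 775 and 1669.5 CPM in WT. Without the last WT library, replicate 4, the gap was wide and the log2 fold change 1.18 (adjusted p = 1.18e-10), against 0.81 ± 0.25 (adjusted p = 0.0383) over all libraries. That call was lost when any single library other than WT replicate 4 was left out (adjusted p 0.0793 to 0.108). C4a, its near-identical neighbour, had the opposite direction, at 167, 158, 172 and 156 CPM in KO and 245, 397, 313 and 1055 CPM in WT (-1.61 ± 0.38, adjusted p = 0.0134, and -0.95 without WT replicate 4, adjusted p = 9.76e-07). The sources used here do not say how reads were divided between both copies. With their counts summed over all libraries the log2 fold change was 0.35 (adjusted p = 0.413). WT replicate 4 had the highest WT level of both copies, at 1669.5 CPM of C4b and 1055 CPM of C4a. The sum was not fitted without that library, so the value does not show that the 2 copies together were unchanged.

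Mbl1, a mannose-binding lectin, rose by 0.77 ± 0.17 (adjusted p = 0.00854), at 137, 139, 152 and 143 CPM in KO and 85.4, 93.05, 97.4 and 56.8 CPM in WT, with no overlap. The second lectin, Mbl2, averaged 272 ± 21.6 CPM in KO and 265 ± 59.5 CPM in WT, a log2 fold change of 0.04 ± 0.17 with a 95% interval of -0.34 to 0.42. C1s1, the C1 protease that cleaves C4 and C2, fell by 0.57 on the log2 scale (SE 0.14, adjusted p = 0.0151). It read 321, 296, 336 and 314 CPM in KO and 409, 499, 428 and 553 CPM in WT, again without overlap. That call was lost without KO replicate 2 or 4 or WT replicate 2 (adjusted p up to 0.0645), and library-size scaling turned the value to 0.05. In C1s1 18.4% of exon bases are shared with Gm16567 on the opposite strand. C1ra, the protease that activates C1s, overlapped between groups, with a log2 fold change of -0.13 ± 0.15 (95% interval -0.45 to 0.20). C2 read 24.0, 21.7, 28.0 and 22.5 CPM in KO and 33.2, 28.6, 32.8 and 49.5 CPM in WT. It fell by 0.54 on the log2 scale (SE 0.17, adjusted p = 0.0454), a call lost under 12 of 19 alternatives. Of these, 6 leave out a single library, and library-size scaling turned the value to 0.09. In GENCODE M21, 42.8% of its exon bases are shared with Gm20547. The lectin pathway proteases Masp1 (-0.06 ± 0.13) and Masp2 (-0.33 ± 0.14, adjusted p = 0.114) did not pass, though every KO library of Masp2 lay below every WT library. Without WT replicate 4, Masp2 passed at -0.24 (adjusted p = 0.0443). In Masp2 54.9% of exon bases are shared with Tardbp on the opposite strand, and the sources used here do not state the strand setting of the counting.

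In the terminal pathway 2 of 6 genes rose and 2 fell. C6, which binds C5b as the pore begins to form, had 68.1, 83.6, 82.9 and 75.2 CPM in KO and 142, 149.5, 134 and 261 CPM in WT, where replicate 4 was highest. Its log2 fold change of -1.14 ± 0.21 (adjusted p = 0.00362) was the largest fall among the members, at -0.86 (adjusted p = 1.82e-07) without that library. C9, which polymerises into the pore wall, read 177, 219, 205 and 226 CPM in KO and 388, 318, 325 and 268 CPM in WT, and fell by 0.65 on the log2 scale (SE 0.15, adjusted p = 0.0116). The groups of C6 and C9 did not overlap. The C8 chains moved unevenly. C8a, the chain that inserts into the membrane, read 581, 575, 597 and 605 CPM in KO and 411, 430.4, 454 and 467 CPM in WT, and rose by 0.42 ± 0.12 (adjusted p = 0.0302). C8b, which ties C8 to the forming complex, rose by 0.47 ± 0.15 (adjusted p = 0.0480) to 148 ± 6.35 CPM in KO, against 107 ± 19.9 CPM in WT (SD, n = 4 each). C8g, the lipocalin chain bound to C8 alpha, had a log2 fold change of -0.09 ± 0.14 (95% interval -0.39 to 0.21). Leaving out a library ended the C8a call in 7 of 8 cases and the C8b call in 6 of 8, with adjusted p up to 0.093 and 0.135. Hc, the C5 gene, read 819, 722, 749 and 709 CPM in KO and 549, 577, 574 and 1099 CPM in WT. WT replicate 4 alone lay above the KO libraries: over all libraries the log2 fold change was 0.10 ± 0.22 (adjusted p = 0.781) and without it 0.41 (adjusted p = 0.000608).

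All 4 complement regulators rose, each without overlap between the groups. Serping1 encodes C1 inhibitor, which also blocks the contact system. It read 792, 955, 856 and 934 CPM in KO and 438, 345, 416 and 536 CPM in WT. Its rise of 1.03 ± 0.16 (adjusted p = 0.00120) kept its call under all 19 alternatives. Cfi, the protease that cleaves C3b and C4b, read 456, 538, 513 and 534 CPM in KO and 313, 257, 286 and 299 CPM in WT (0.82 ± 0.13, adjusted p = 0.00147). Vtn, the vitronectin gene, whose product keeps the pore from inserting and also steadies PAI-1, read 2459, 2536, 2551 and 2560.0 CPM in KO and 1806, 1469, 1669 and 1785 CPM in WT (0.59 ± 0.13, adjusted p = 0.00861). C4bp, the cofactor for cleavage of C4b, averaged 282 ± 18.9 CPM in KO and 185 ± 31.5 CPM in WT (0.61 ± 0.15, adjusted p = 0.0144). Its call was lost without KO replicate 2 or 4 (adjusted p up to 0.0553).

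The contact system, which starts clotting on charged surfaces and releases bradykinin, gave 2 falls and no rise among 4 genes. Klkb1, the plasma prekallikrein gene, read 180.3, 159, 184 and 169 CPM in KO and 289, 324, 318 and 224 CPM in WT, and fell by 0.74 on the log2 scale (SE 0.15, adjusted p = 0.00550). F11, its neighbour on the chromosome and the gene of factor XI, read 22.1, 19.2, 21.3 and 22.5 CPM in KO and 33.6, 31.7, 35.5 and 69.7 CPM in WT. It fell by 0.94 on the log2 scale (SE 0.23, adjusted p = 0.0142), or by 0.65 without WT replicate 4, and was not called without KO replicate 2 (adjusted p = 0.0559). Both pairs of groups stood apart, with WT replicate 4 lowest of the WT libraries for Klkb1 and highest for F11. In Klkb1 43.2% of exon bases are shared with Gm45753 on the same strand, which had 0 counts in every library. How reads over both were counted is not given either. F12, the factor that is activated first on a surface, averaged 392.2 ± 14.6 CPM in KO and 392.04 ± 108 CPM in WT, and passed at 0.22 (adjusted p = 0.0477) when WT replicate 4 was left out. Kng1, the source of bradykinin, read 2347, 2316, 2402 and 2336 CPM in KO and 1958, 1747, 1844 and 2157 CPM in WT. Every KO library of Kng1 lay above every WT library, yet the change of 0.29 ± 0.13 did not pass (unadjusted p = 0.0440, adjusted p = 0.129). It passed under 3 of 19 alternatives, among them DESeq2 (0.32, adjusted p = 0.00244) and the fit without WT replicate 4 (0.35, adjusted p = 0.00164).

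Of the 5 proteases and cofactors from factor VII to thrombin, F9 rose. F9, on the X chromosome, stood at 175, 201, 199 and 191 CPM in KO and at 151, 123, 132 and 120.3 CPM in WT. The groups were apart, with a log2 fold change of 0.54 ± 0.13 (adjusted p = 0.0149), lost without KO replicate 2 or 3 or WT replicate 2 (adjusted p up to 0.0545). F2, the prothrombin gene, read 1032, 1152, 1038 and 1123 CPM in KO and 808, 706, 783 and 1124 CPM in WT (0.35 ± 0.16, adjusted p = 0.149). F7, which starts clotting with tissue factor, read 112, 117, 109 and 113 CPM in KO and 80.2, 92.6, 86.2 and 108 CPM in WT (0.31 ± 0.13, adjusted p = 0.119). F7 did not overlap between the groups, while F2 did through WT replicate 4. F5, whose product is the cofactor in prothrombin cleavage, averaged 241 ± 18.3 CPM in KO and 203 ± 32.2 CPM in WT (0.25 ± 0.15, adjusted p = 0.238). F10, whose product is the protease of that step, averaged 313 ± 5.87 CPM in KO and 279 ± 11.7 CPM in WT (0.17 ± 0.12, adjusted p = 0.340). Without WT replicate 4, which held the highest WT level of all these genes but F9, F2 (0.51, adjusted p = 5.89e-05), F5 (0.37, adjusted p = 0.00304) and F7 (0.40, adjusted p = 0.00185) passed and F10 did not (0.19, adjusted p = 0.0871).

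None of the 4 anticoagulant genes passed in edgeR or in DESeq2 or had an unadjusted p under 0.05, and their median was -0.07. In edgeR 10427 of all 13204 genes tested did not pass either, so this count alone does not set the 4 apart. Serpinc1, the antithrombin gene, had 1480.4, 1524, 1570.5 and 1554 CPM in KO and 1636, 1472, 1585 and 1586 CPM in WT. Its groups overlapped, 34.4% of its exon bases are shared with Zbtb37 on the opposite strand, and the 95% interval of the log2 fold change ran from -0.30 to 0.23. Proc, the gene of the factor V-cutting protease protein C, read 583, 531, 591 and 545 CPM in KO and 563, 575, 582 and 711 CPM in WT (-0.11 ± 0.13). Pros1, the cofactor protein S, averaged 48.1 ± 3.66 CPM in KO and 49.1 ± 15.4 CPM in WT (0.01 ± 0.19). Serpind1, the heparin cofactor II gene, read 219.7, 280.4, 244 and 262 CPM in KO and 283, 227, 268 and 315 CPM in WT (-0.12 ± 0.15). All 4 pairs of groups overlapped. Their intervals lay between -0.44 and 0.41 and so exclude a change as large as that of any fibrinogen chain. Nor did any of the 4 pass without WT replicate 4, where they ran from -0.04 to 0.22.

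Of the 2 fibrinolysis genes, Plg, the plasminogen gene, rose and its inhibitor did not. Plg read 1532, 1724, 1654 and 1706 CPM in KO and 884, 769, 927 and 1250.0 CPM in WT. The groups did not overlap, and the log2 fold change was 0.79 ± 0.16 (adjusted p = 0.00648), or 0.95 without WT replicate 4. In Plg 11.3% of exon bases are shared with Slc22a3 on the opposite strand, and the strand setting of the counting is not given. Serpinf2, the gene of alpha-2-antiplasmin, read 574, 631, 596 and 645 CPM in KO and 592, 506, 543 and 659 CPM in WT. These values overlapped, and the log2 fold change of 0.09 ± 0.13 did not pass (adjusted p = 0.672).

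Ratios between partner genes within a library do not depend on how libraries are scaled. They were computed for 15 pairs that share a complex, a step or a reaction, picked with the fold changes known. The ratios are therefore given as a description, with no test. In the terminal pathway, C6 had 8.32, 11.6, 11.1 and 10.6 counts per 100 of Hc in KO and 25.9, 25.9, 23.3 and 23.7 in WT. In this ratio WT replicate 4, at 23.7, lay among the other WT libraries, although it was highest for both genes. C9 had 35.04 ± 3.49 counts per 100 of C8a in KO and 74.3 ± 15.2 in WT (SD, n = 4 each, here and for the pairs below). C8g had 47.1, 46.4, 46.1 and 46.5 counts per 100 of C8a in KO and 74.9, 67.5, 72.8 and 50.5 in WT. The ratio of C8a to C8b overlapped (399 ± 22.2 counts per 100 in KO and 427 ± 96.8 in WT).

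Serpinf2, whose own level did not pass the test, had 37.0 ± 0.789 counts per 100 of Plg in KO and 61.0 ± 6.67 in WT. Klkb1 had 7.36 ± 0.390 counts per 100 of Kng1 in KO and 15.2 ± 3.59 in WT, without overlap. C1s1 had 270.5 ± 18.4 counts per 100 of C1ra in KO and 370.1 ± 45.3 in WT, and C2 had 1.37 ± 0.126 per 100 of C4b in KO and 3.80 ± 0.699 in WT. Mbl1 had 52.6 ± 4.24 counts per 100 of Mbl2 in KO and 31.6 ± 4.68 in WT. Among the fibrinogen chains, Fgg had 75.1 ± 3.93 counts per 100 of Fgb in KO and 50.9 ± 8.27 in WT. Fga had 69.7, 85.9, 73.5 and 85.9 counts per 100 of Fgb in KO and 44.2, 36.6, 38.8 and 81.2 in WT. WT replicate 4 alone overlapped with KO there. C4a had 9.34 ± 0.220 counts per 100 of C4b in KO and 46.3 ± 12.9 in WT. Ratios still depend on how reads over shared exon bases or near-identical copies were counted, which is not given. This bears on the pairs with C2, C4b, C4a, Klkb1, C1s1, Plg or Masp2. The ratios F11 to Klkb1, Masp1 to Masp2 and Cfi to C3 overlapped between groups.

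**Figure D3:**
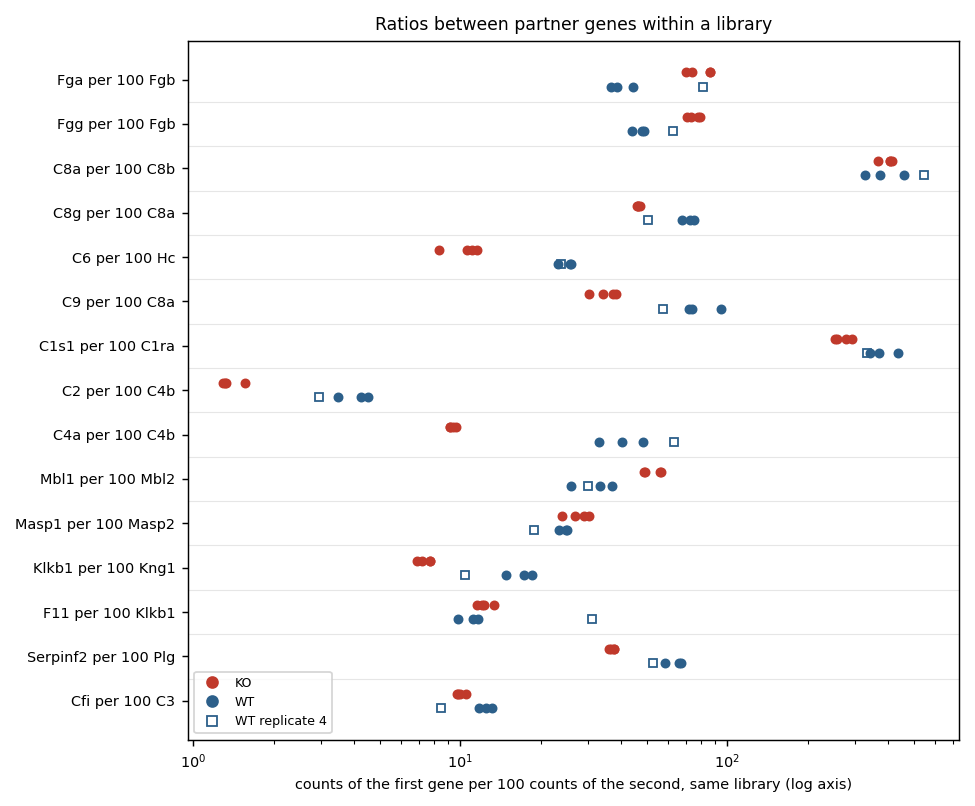
Counts of the first gene per 100 counts of the second in the same library (x axis, log scale) for 15 pairs (y axis), KO in red above WT in blue, with WT replicate 4 as an open square. In the pair of C6 with Hc the KO libraries lie between 8.32 and 11.6 and the WT libraries between 23.3 and 25.9, and in the pairs of Fga with Fgb and of F11 with Klkb1 the open square lies away from the other WT libraries.

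The members varied less within KO than within WT. The coefficient of variation over 4 libraries had a median of 5.66% in KO and 15.9% in WT over the 38 tested members, and of 7.08% in WT without replicate 4. Fga was the most variable member in both genotypes, at 14.7% in KO and 48.3% in WT. The same medians over 6819 tested genes with at least 10 CPM in both groups were 8.80% in KO, 22.0% in WT and 10.8% in WT without replicate 4. WT replicate 4 was the highest WT library for 27 members and the lowest for 7, and its rank was not counted over all genes.

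Among 60 other genes listed with both cascades, 46 were tested, with a median of 0.42. Of these, 15 rose (32.6%, against 10.4% of all tested genes) and 3 fell (6.52%, against 10.7%). Of the 48 tested without WT replicate 4, 26 rose and 3 fell, where 17.8% and 17.5% of all genes did. The rise with the smallest p was that of Fgl1 (4.06 ± 0.15, adjusted p = 3.76e-08), which averaged 1470.0 ± 72.7 CPM in KO and 87.8 ± 9.26 CPM in WT (SD, n = 4 each). Fgl1 is a fibrinogen-like hepatokine gene rather than that of a clotting factor, though it was listed with the coagulation genes. Hrg, a plasma glycoprotein that binds heparin and plasminogen, rose by 1.35 ± 0.13 (adjusted p = 5.23e-05), and Serpina10, the protein Z-dependent inhibitor of factor Xa, by 1.25 ± 0.12 (adjusted p = 5.76e-05). Clusterin (Clu), which keeps the pore in solution, rose by 1.27 ± 0.21, the protease inhibitor Serpine2 by 1.21 ± 0.21 and Apoh, a phospholipid-binding plasma protein, by 0.72 ± 0.13. C1qc, of the C1q recognition subunit, rose by 1.66 ± 0.26 (adjusted p = 0.00139), at 20.8 ± 2.55 CPM in KO and 7.43 ± 3.86 CPM in WT. C1qa, of the same subunit, rose by 1.29 ± 0.33 (adjusted p = 0.0191), though its groups overlapped. C1qb did not pass (0.63 ± 0.49, adjusted p = 0.383), but did without WT replicate 4 (1.39, adjusted p = 1.93e-06). The falls were C4a, Hgfac (-0.80 ± 0.16), the gene of the growth factor-activating protease, and Cd59a (-0.54 ± 0.14), which blocks the pore on host cells.

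C1q genes are made by macrophages. The sum of 10 Kupffer cell markers, which holds the 3 C1q genes, was 166 to 203 CPM in KO and 64.0 to 216 CPM in WT, or 64.0 to 81.4 CPM without WT replicate 4, and 6 of the 10 rose and none fell, or 9 and none without that library. The sum of 10 sinusoidal endothelial markers was 164 to 310.4 CPM in KO and 108 to 206 CPM in WT, and 7 rose and none fell. The endothelial sum without WT replicate 4 was 108 to 131 CPM in WT, below every KO library, and 8 rose. Stab1, which did not pass (-0.06 ± 0.31), averaged 63.5 CPM in KO and 68.0 CPM in WT and weighs most in that sum. Markers of platelets and megakaryocytes, cells that also carry coagulation factors, summed to 6.72 to 7.53 CPM in KO and 8.21 to 26.4 CPM in WT (8.21 to 15.0 CPM without WT replicate 4), and 1 of 3 tested fell. The sum of 8 stellate cell and fibroblast markers was 102 to 105 CPM in KO and 97.4 to 231 CPM in WT, where 4 fell and none rose. Without WT replicate 4 it was 97.4 to 123 CPM in WT, and 4 fell and 1 rose. The 4 were Col1a1, Col1a2, Col3a1 and Acta2 with and without that library. Dcn, the 1 that rose, weighs most in the sum, averaging 63.7 CPM in KO and 50.6 CPM in all WT libraries. All 6 B cell markers fell, with sums of 4.68 to 10.4 CPM in KO and 33.1 to 67.3 CPM in WT, and 2 of 4 tested T cell markers did, with sums of 3.73 to 5.86 CPM in KO and 6.87 to 12.9 CPM in WT. Cholangiocyte markers summed to 31.4 to 33.0 CPM in KO and 10.1 to 20.3 CPM in WT (17.3 to 20.3 CPM without WT replicate 4), with 1 of 2 tested higher, or 2 of 4 without that library. Spp1 weighs most in the cholangiocyte sum, averaging 23.9 CPM in KO and 12.9 CPM in WT. Neutrophil markers, of which Ly6g and Mpo were at 0 in every library and 1 was tested without a call, summed to 3.12 to 4.21 CPM in KO and 1.51 to 4.498 CPM in WT. The neutrophil sum without WT replicate 4 was 1.51 to 1.97 CPM in WT, below every KO library. The part of these cells in the member changes was not tested.

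**Figure D4:**
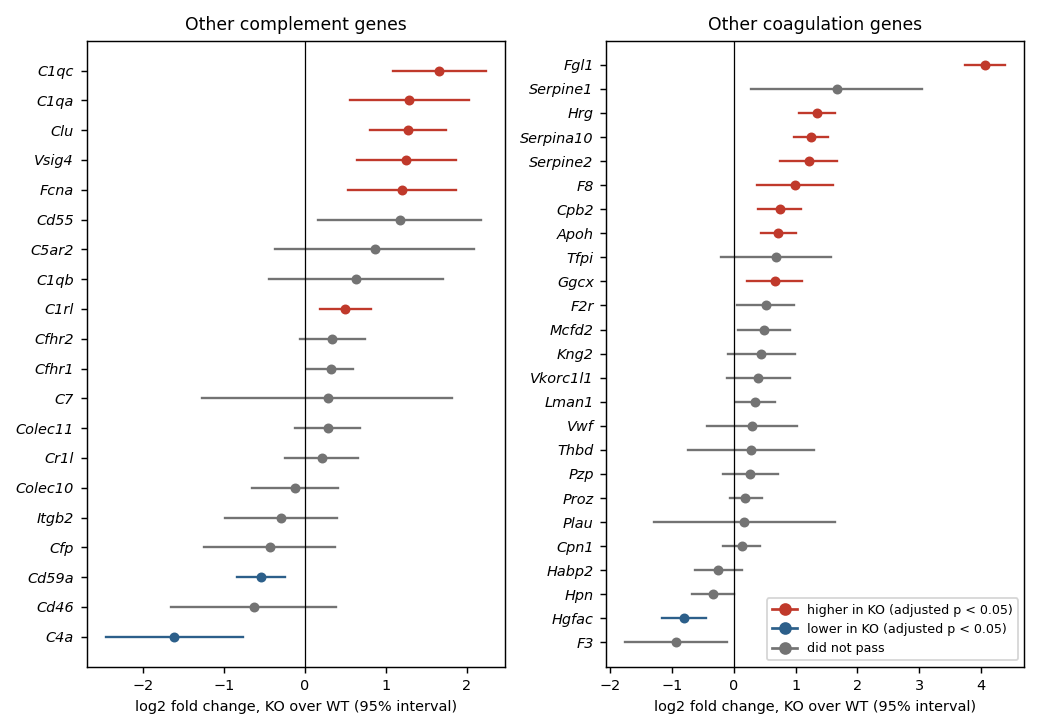
Log2 fold change of KO over WT (x axis) with its 95% interval for other tested genes, in order of change. Genes listed with complement are on the left and those listed with coagulation, the hepatokine gene Fgl1 among them, on the right. Red marks genes that rose and blue genes that fell at an adjusted p under 0.05, with Fgl1 at 4.06 and C4a at -1.61 at the ends.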

How the data were processed

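The deposited table holds whole-number counts per Ensembl gene for 8 liver libraries, made by the authors with no normalization. The submitters' processing notes name cutadapt 4.2, STAR 2.7.10a and mm39; the counter, its strand setting and its treatment of reads that match several genes are not given in the sources used here. Symbols and 3′ UTRs came from GENCODE M21 (GRCm38), which left 4675 of 56748 IDs unnamed, and promoters and miR-93-5p from RefSeq (GRCm38.p6). No coordinate was carried between builds.

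KO was tested against WT with edgeR 4.0.16 in R 4.3.3: TMM factors, filterByExpr (13204 of 25937 detected genes), robust quasi-likelihood fits, two-sided, with a Benjamini-Hochberg adjusted p under 0.05, over every tested gene, as a call. The standard error is the absolute log2 fold change over the square root of F. CPM use TMM-scaled library sizes, on which 3 counts, the limit that a count of 0 allows, are 0.219 CPM in KO replicate 3 and 1.69 CPM in WT replicate 4; this covers counting error only. On simulated counts for this comparison (13007 genes), the fit recovered 55 of 99 genes changed by 1 on the log2 scale and 92 of 97 changed by 2, and 5.77% of 156 calls were false. The simulation changed 200 genes and gave every library the same dispersion per gene. In the data 1369 genes were called higher and 1408 lower, so these rates need not hold for the member calls.

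Alternatives were other scalings, filters, DESeq2 1.42.0, limma-voom (limma 3.58.1), a minimum fold of 1.5, a replicate block and each library left out. The summed counts of near-identical copies and the alternatives for groups that do not overlap were added after the data were seen. The members, lists and pairs were chosen with earlier results of these data known. All members are accounted for, with values per library for up to 3 members of a step with the smallest p and those below the filter; of the other pathway genes, at most 8 a direction with the smallest p are named, and 1 that this rule takes is not reported here. Genes named beyond this were named after their values were seen.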

Additional observations from a re-analysis of the deposited data

Results flagged for a closer look

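In 11 of 76 groups of 4 libraries (38 members in each genotype), 1 library lay farther from the other 3 than Dixon's 95% critical value allows. Chance gives such a library in about 1 of 20 independent groups. The 38 members share the same libraries, so the 76 groups are not independent. The share over all genes was not counted, and 11 of 76 is not read as a result about the members. In 9 of the 11 the library was WT replicate 4, and it was the highest WT library each time. It had 3519.5 CPM of C3, 1669.5 CPM of C4b, 1099 CPM of Hc and 261 CPM of C6. For the proteases of the first steps it had 165 CPM of C1ra, 552 CPM of F12 and 69.7 CPM of F11, and for the anticoagulants 711 CPM of Proc and 72.0 CPM of Pros1. In the remaining 2 groups, Fgb in KO replicate 1, at 3303 CPM, was lower than the other KO libraries, and Masp1 in WT replicate 2, at 106 CPM, was higher than the other WT libraries.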

How the results depend on the processing

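Counts of members higher and lower in KO (15 and 6) stayed within 1.5 times under most alternatives. Library-size scaling gave 7 and 0, a minimum fold of 1.5 gave 4 (Fga, Fgb, Fgg and Serping1) and 0, and the replicate block 8 and 3. Over all genes, calls of 1369 higher and 1408 lower also became fewer, with 561 and 124 under library-size scaling, 317 and 350 with the minimum fold and 643 and 624 with the block. The replicate numbers are only shared labels: same-numbered KO and WT libraries deviated together in no pair (correlations -0.193 to -0.0322). Leaving out 1 library gave 9 to 21 higher and 3 to 7 lower, with 9 and 3 without KO replicate 2 (760 and 734 over all genes). Groups did not overlap for 18 members higher and 7 lower (16.3% and 14.0% of all genes). Library-size scaling, which moved the median of all genes to 0.54, gave 28 and 0, and leaving out 1 library 18 to 23 and 7 to 8. The share over all genes was not counted for these alternatives, so their counts are not read as a result about the members. Fga, Fgb, Fgg and Serping1 kept their calls under every alternative run, and 12 of the 21 called members did with any 1 library left out. Of the member results under alternatives, 595 kept direction and side of the threshold, 87 lost a call in the same direction and 17 gained one. Another 25 changed sign, the called C1s1 and C2 among them with their calls lost, and the cause was not tested. Library-size scaling gave C1ra 0.52, C1s1 0.05, Masp1 0.50, Masp2 0.29, C2 0.09, C8g 0.43, Proc 0.50, Serpinc1 0.53 and Serpind1 0.49. C1ra read 0.01 and Mbl2 -0.05 with limma-voom quality weights, and C1ra 0.02 and Mbl2 -0.08 without WT replicate 4. F12 read -0.0007 without mitochondrial genes and -0.02 without KO replicate 3, and Serpinc1 0.03 without a filter. Without WT replicate 1 F12 read -0.08 and Pros1 -0.07. Without WT replicate 2 Masp1 read 0.02, F12 -0.03 and Pros1 -0.04. Without WT replicate 3 F12 read -0.04 and Pros1 -0.06. Pros1 read -0.01 without KO replicate 2 and -0.03 without KO replicate 4. With 1 library left out, the values of these members spanned -0.17 to 0.02 for C1ra, -0.08 to 0.16 for Mbl2, -0.09 to 0.02 for Masp1, -0.08 to 0.22 for F12 and -0.07 to 0.22 for Pros1. Depth limits low genes most in WT replicate 4, so the 2 members below the filter cannot be compared.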
